A study of Mus musculus with 8 samples.

Results

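Short piRNA clusters are genomic loci of 1010 to 3573 bp, in the mm9 build, to which the authors assigned small RNA under names of the form piRNA_cluster_189, written here as cluster 189. They were chosen by length alone: the pellet table lists 180 clusters with a median length of 3579.5 bp, and 90 of these are shorter. Of 5 clusters left out by name, 3 were among the 90, which leaves 87 members with a median length of 1644 bp. All 87 are listed in all 5 tables. The 88 clusters at or above the median length, with the same 5 left out, are called long clusters below.

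piRNAs are small RNAs of germ cells that guide PIWI proteins. In the mouse testis most of them are cut from long single-stranded transcripts of a limited number of loci, many of which are switched on at the pachytene stage of meiosis by the transcription factor A-MYB. The mature piRNAs load onto MIWI (PIWIL1) and MILI (PIWIL2), which are found in the chromatoid body, a granule in the cytoplasm of round spermatids that also holds the RNA helicase MVH (DDX4).

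The study followed small RNA of 19 to 33 nt through the purification of chromatoid bodies from C57BL/6 mice at least 6 weeks old. Tubule cells were freed with collagenase, fixed with formaldehyde and sonicated, which gave the lysate. Spinning gave a supernatant and a first pellet, and a further sonication, filtration and spin gave a second pellet, from which MVH IP and ACR IP (acrosin, an acrosome protein, as control antibody) were made. Sorted round spermatids carry the label hetMIWI, and nothing more is said there of their genotype or of how many animals any library came from. The 8 samples form 7 groups, with 2 libraries for MVH IP and 1 for each other group. The MVH IP libraries share 1 column, and the labels do not say which of the pellet samples the pellet column holds. No group therefore has a spread between replicates, no test between groups could be made, and each ratio compares libraries, not conditions. In bulk samples fewer cells of a type and less RNA per cell cannot be told apart, and FPKM, a fragment count per length and library size, gives a share of a library and not an amount.

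The members lie on 17 chromosomes, with 12 on chromosome 17, 10 on chromosome 10 and 9 on chromosome 14. When loci less than 100 kb apart were joined, the members fell into 48 stretches, of which 21 held at least 2 members, 60 members in all. Another cluster, short or long, lay in the same stretch for 71 of the 87. Many members are thus neighbours and cannot be taken as independent of each other. Only 3 members share their locus with a named gene: cluster 6 (chromosome 1, 93299655 to 93302606) with 1700020N18Rik, cluster 108 (chromosome 10, 75322098 to 75324410) with Mif, which encodes a cytokine, and cluster 142 (chromosome 13, 21595440 to 21598393) with Zfp389. Strand and the handling of reads with several matches are not given in the sources used here, so the reads of these members and of the genes cannot be told apart. In the pellet the gene rows were lower than the lysate by log2 ratios near those of the cluster rows: -2.57 for 1700020N18Rik against -2.45 for cluster 6, -2.66 for Mif against -2.57 for cluster 108, and -2.52 for Zfp389 against -2.37 for cluster 142. In the supernatant the rows differed more: -0.51 for 1700020N18Rik against -0.26 for cluster 6, 0.10 for Mif against -0.02 for cluster 108, and -0.23 for Zfp389 against 0.11 for cluster 142.

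The gene start regions are shown because they are the only stretches of sequence near members that the reference tables hold. RefSeq promoters (GRCm38.p6, 250 bases before to 50 after the start, matched by symbol for 2 of the 3 genes) are printed 5′ to 3′ on the gene's strand. Capitals mark matches on either strand to AACNG, the core recognised by MYB proteins, with no overlaps.
1700020N18Rik: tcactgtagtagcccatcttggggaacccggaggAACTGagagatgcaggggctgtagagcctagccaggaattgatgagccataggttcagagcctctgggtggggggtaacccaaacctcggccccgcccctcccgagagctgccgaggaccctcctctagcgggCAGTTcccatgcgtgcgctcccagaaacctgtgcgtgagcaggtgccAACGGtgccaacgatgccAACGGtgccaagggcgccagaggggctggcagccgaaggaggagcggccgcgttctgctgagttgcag
Mif: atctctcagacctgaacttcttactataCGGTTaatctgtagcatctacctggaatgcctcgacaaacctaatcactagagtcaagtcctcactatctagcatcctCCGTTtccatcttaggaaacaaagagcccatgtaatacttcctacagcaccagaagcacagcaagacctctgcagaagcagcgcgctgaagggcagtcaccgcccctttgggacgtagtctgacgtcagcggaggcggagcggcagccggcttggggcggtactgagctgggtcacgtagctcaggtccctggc
The promoter of 1700020N18Rik (chromosome 1, 91405980 to 91406279 in GRCm38.p6, minus strand) held 4 matches, 3 of them on the gene's strand, and 11.8% of 32544 promoters of this length held at least 4. The promoter of Mif (chromosome 10, 75860228 to 75860527, minus strand) held 2 matches, both on the opposite strand, and 51.2% of promoters held at least 2. A match is a description of these letters and does not show binding.

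In the lysate of the pellet table the members spanned 63.9 to 4651 FPKM, with a median of 442 FPKM. Long clusters had a median of 1532 FPKM there. The 6 highest members were cluster 189 (4651 FPKM), cluster 27 (3728), cluster 6 (2488), cluster 178 (2481), cluster 12 (2408) and cluster 140 (2316). The highest member, cluster 189, is a 1089 bp locus alone in its stretch on chromosome 17 (49251068 to 49252156). It had 4651 FPKM in the lysate and 637 in the pellet of the pellet table, 1946 in the lysate and 1869 in the supernatant of the supernatant table, and 4051 in the lysate and 22.4 in the ACR IP of the ACR IP table. It also had the highest level among members in the MVH IP, 2285 FPKM, and in round spermatids, 3005 FPKM. Length and lysate level went together only weakly over the 87 members (Spearman 0.29, Pearson 0.07), as a description over loci that share libraries and neighbours.

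Weighted by locus length, a few members carried much of the signal. The 6 members with the highest shares (clusters 27, 6, 189, 110, 50 and 178) held 27.7% of the members' FPKM times length in the lysate, and cluster 27 alone held 7.10%. The 6 highest held 27.9% in the pellet and 29.0% in the MVH IP. The share of cluster 6 rests on its full locus length. The counting errors described below imply 2277 pellet reads for it, against 2651 for cluster 110 and 2740 for cluster 50. Its pellet share was 6.01%, against 3.99% and 4.14%, so the order by implied reads differs from the order by share. Against all 180 clusters the members held 3.56% of this signal in the lysate, 3.57% in the supernatant, 3.48% in the pellet, 3.5% in the MVH IP, 3.20% in round spermatids and 2.50% in the ACR IP. The share was thus nearly the same in the lysate and the fractions made from it by spinning. FPKM summed without length gave 28.5% in the lysate and 22.8% in the pellet, on a scale where a short locus counts for as much as a long one.

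**Figure D1:**
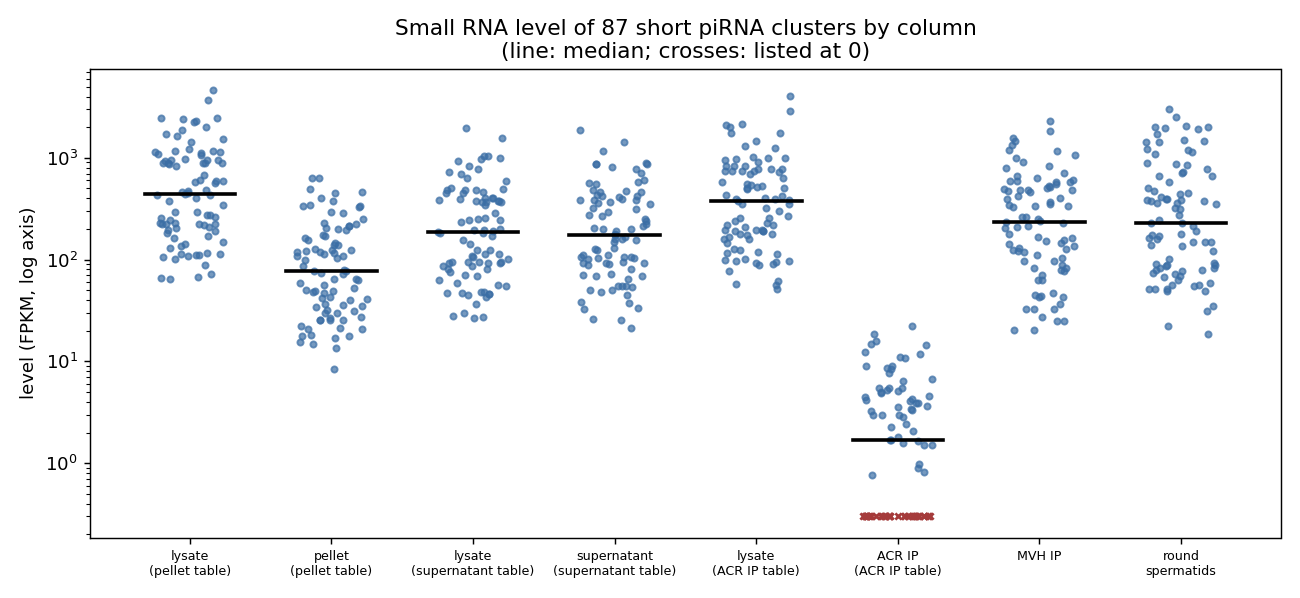
Level of each of the 87 short clusters (points, FPKM on a log axis) in the 8 columns used, grouped by table, with the median as a line and members listed at 0 as crosses at the foot. The pellet lies below its lysate, the supernatant at the level of its lysate, and the ACR IP between 0 and 22.4 FPKM.

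The comparison of supernatant with lysate asked which small RNA stayed in solution. The short clusters stayed close to the lysate, at 26.8 to 1946 FPKM (median 185) in the lysate and 21.5 to 1869 FPKM (median 175) in the supernatant. The median log2 ratio of (supernatant + 1) to (lysate + 1) was -0.03, against -0.08 for long clusters and 0.02 for all 4999 features that reached 1 FPKM in the supernatant or the lysate. The ratio was above 0 in 34 members and below 0 in 53; 47% of all features were below 0. No member was 2-fold lower or higher, where 5.42% of all features were lower and 7.16% higher by that measure. Of the members, the calls of the authors' deposited table put 3 higher (0.96% of all features) and 12 lower (1.62%). Among the 88 long clusters the same calls put 1 higher and 46 lower, and 16 had a ratio above 0. By a q-value under 0.05 of the authors' deposited table, 11 members were higher and 25 lower (3.82% and 4.9% of all features). Those q-values compare 1 library with 1 library. Every called member had a q-value listed at 0, and no uncalled member did in this comparison. A member that was not called can therefore still have a q-value under 0.05.

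Around this common level the members differed from each other by more than counting error. Counting errors (SE) were taken from the authors' test statistic, with a median of 0.04 on the log2 scale, and 52 of the 87 members lay more than 2 counting SE from the members' median, 26 above and 26 below. These SEs were read as the error of counting reads in each library, and they do not cover the spread between preparations. They ran from 0.01 to 0.14, so the number of members past 2 SE depends on read depth. That number was not taken for long clusters or all features.

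The highest ratio belonged to cluster 126, a 1251 bp locus on chromosome 11 (103306111 to 103307361), with 179 FPKM in the supernatant and 124 in the lysate, a log2 ratio of 0.53 (counting SE 0.05). Its neighbours on the same 20.3 kb stretch did not share this: cluster 127, the next member along it, had -0.04 (counting SE 0.03) and cluster 125 had -0.22 (counting SE 0.03). The other members called higher in the authors' deposited table were cluster 12 at 0.21 (counting SE 0.02) and cluster 185 at 0.19 (counting SE 0.02). Clusters 116, 164, 163, 159 and 131 had ratios of 0.24 to 0.29 with counting SEs of 0.05 to 0.12. None of them was called, at q-values of the authors' deposited table of 2.2e-06, 0.00028, 0.0503, 0.218 and 0.0498 in that order. Clusters 163 and 164 are neighbours on chromosome 15 and had 0.26 and 0.27.

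The lowest ratio belonged to cluster 29, a 1136 bp locus on chromosome 5 (113786110 to 113787245), with 156 FPKM in the supernatant and 244 in the lysate, a log2 ratio of -0.64 (counting SE 0.05). That SE implied 1293 supernatant reads, against 1793 for cluster 54, a 1025 bp locus at 168 FPKM. The SE of cluster 29 may therefore hold more than counting error on its listed locus. Cluster 27, in the same stretch, had -0.14 (counting SE 0.01), and the long clusters 35 and 28 of that stretch both had -0.03. Among the other low members, clusters 139, 37, 143 and 160 had ratios of -0.33 to -0.28 and were called lower in the authors' deposited table. Cluster 14, at 21.5 FPKM against 28.2, had -0.37 with a counting SE of 0.13. It was not called, at a q-value of 0.038 in the authors' deposited table. Called and uncalled members overlapped in size of ratio.

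**Figure D2:**
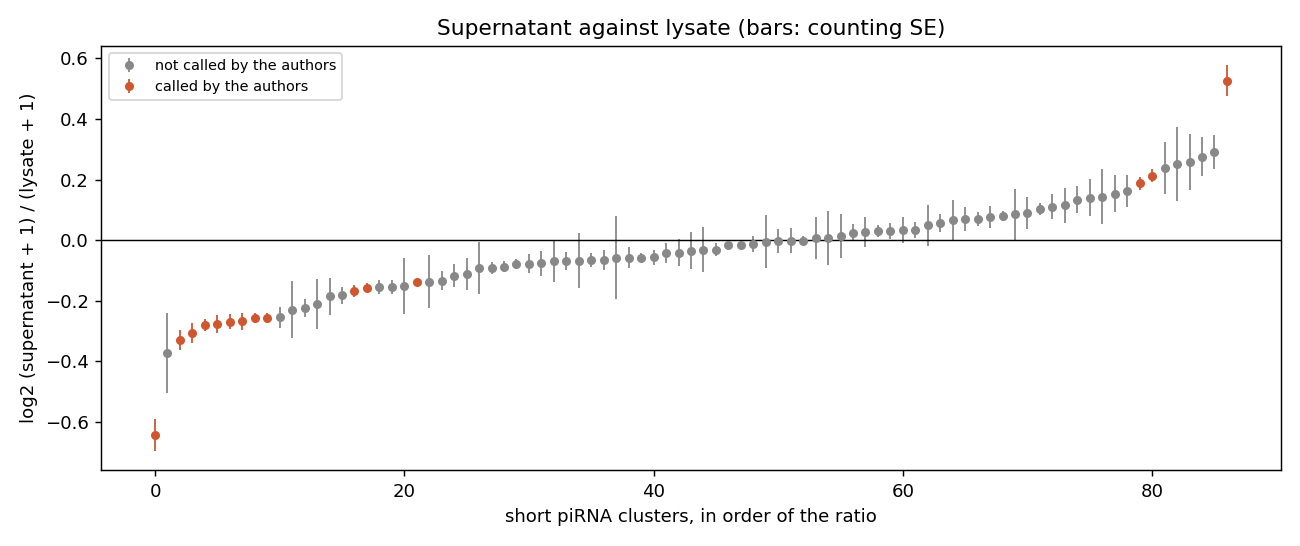
Log2 ratio of supernatant to lysate for the 87 short clusters in order of the ratio, with bars of 1 counting SE and members called in the authors' deposited table in orange. The members run from -0.64 to 0.53, and cluster 29 and cluster 126 stand apart at the ends.

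The comparison of pellet with lysate asked what was carried down by spinning. Every short cluster was lower in the pellet, with log2 ratios of -3.28 to -1.99 (SD over clusters 0.24, against 0.18 for long clusters). Levels were 8.38 to 637 FPKM (median 76.8) in the pellet against 63.9 to 4651 FPKM in the lysate, so that the pellet held 10.2% to 24.8% of the lysate value, with a median of 18.3%. The median log2 ratio was -2.43, against -2.47 for long clusters and -2.20 for all 3005 features. All 87 members were at least 2-fold lower, as were 86.5% of all features, and all 87 were called lower in the authors' deposited table, as were 18.7% of all features. By a q-value under 0.05 of the authors' deposited table, all 87 members and 69.4% of all features were lower. The fall of the short clusters was therefore shared with most listed small RNA. No member was higher, where 8.75% of all features were at least 2-fold higher and, in the authors' deposited table, 0.699% were called higher and 5.59% had a q-value under 0.05.

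Within this common fall, 36 of the 87 members lay more than 2 counting SE from the members' median, 14 above and 22 below. The counting SEs ran from 0.02 to 0.32, so this count depends on read depth. The same count was not made for long clusters or all features.

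The lowest pellet ratios came from 1 stretch of chromosome 17 (27428275 to 27499405). Cluster 185 had 119 FPKM in the pellet and 1161 in the lysate, a log2 ratio of -3.28 (counting SE 0.06). Cluster 176, with 104 against 890 FPKM, had -3.09 (counting SE 0.06), and cluster 188, with 126 against 1071 FPKM, had -3.08 (counting SE 0.05). The pellet thus held 10.2% to 11.8% of their lysate value. The 4 long clusters that lie between them had ratios of -3.01 (cluster 174), -2.99 (cluster 186), -2.87 (cluster 175) and -2.75 (cluster 187), also below the members' median. The same 3 members had supernatant ratios of 0.19, -0.07 and 0.10, within the range of the other members.

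The other low members were cluster 42 (chromosome 5, -2.87, counting SE 0.17), cluster 178 (chromosome 17, -2.87, counting SE 0.04) and cluster 189 (-2.87, counting SE 0.04). Clusters 178 and 189 are also among the most abundant members, at 2481 and 4651 FPKM in the lysate, yet cluster 27 at 3728 FPKM had -2.55 and cluster 12 at 2408 FPKM had -2.39. At the upper end stood cluster 85 (chromosome 8, 95934570 to 95936028), with 47.7 FPKM in the pellet and 192 in the lysate, a ratio of -1.99 (counting SE 0.12). Cluster 144 on chromosome 13 followed at -2.06 (counting SE 0.05), and its neighbour cluster 143 had -2.28 (counting SE 0.04). Clusters 131, 14, 26 and 130 had -2.14 to -2.10.

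**Figure D3:**
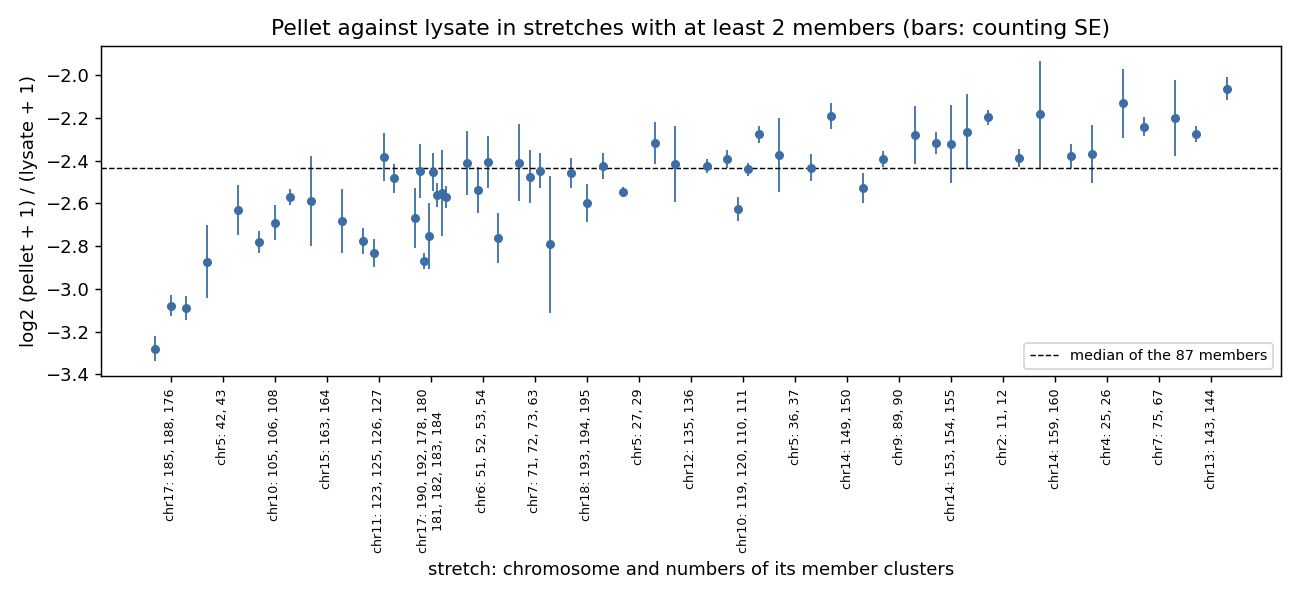
Log2 ratio of pellet to lysate for the 60 short clusters in the 21 stretches with at least 2 members, ordered by the stretch median, with bars of 1 counting SE and the median of the 87 members as a dashed line. Clusters 185, 188 and 176 of chromosome 17 lie between -3.28 and -3.08, below all other members shown.

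Length was nearly uncorrelated with these ratios. Over the 87 members the Spearman correlation of length was -0.05 with the pellet ratio, -0.04 with the supernatant ratio and -0.04 with the ACR IP ratio (Pearson 0.01, -0.02 and -0.02), again as a description. The 3 shortest members, clusters 42, 53 and 51 at 1010, 1015 and 1018 bp, had pellet ratios of -2.87, -2.41 and -2.41. Just inside the length limit, clusters 73, 89 and 136 (3490, 3528 and 3573 bp) had -2.45, -2.39 and -2.42. Just outside it, clusters 145, 173 and 82 (3586, 3600 and 3676 bp) had -2.20, -2.16 and -2.16.

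The ACR IP is the antibody control for the MVH IP, and almost nothing of the short clusters was seen in it. The members had 0 to 22.4 FPKM there, with a median of 1.70, against 50.9 to 4051 FPKM (median 377) in the lysate of the same table. The values are whole multiples of a step, which makes it possible to count the reads behind them: 49 of the 53 members above 0 lay within 0.05 of a whole number. By this count 34 members had 0 reads, 30 had 1 to 3 and 23 had more than 3. Of all features in this comparison 41.2% were listed at 0, and of the long clusters 6 of 88. In all, 217 ACR IP reads fell on the members (exact 95% interval 189 to 248, counting error only), against 359365 lysate reads. At the scaling of the authors' values 1 ACR IP read equalled 10 lysate reads.

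The median log2 ratio of ACR IP to lysate was -7.08, against -7.27 for long clusters and -2.70 for all 2539 features, and all 87 members were at least 2-fold lower, as were 59% of all features; 36.4% of all features were at least 2-fold higher. The size of this ratio rests on the pseudocount: it was -4.95 with 10 FPKM added in place of 1. The read counts give firmer limits. Members at 0 reads were at least 6.17-fold (cluster 63) to at least 123-fold (cluster 139) lower, taking 3 reads per member as the floor. Cluster 139 had 718 FPKM in the lysate, or 3700 reads, and 0 reads in the ACR IP.

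Among members with reads, cluster 136 had the most, 16 reads against 13529 in the lysate, which is 84.6-fold lower in FPKM (95% counting interval 52.1 to 148). Cluster 110 followed with 14 reads, 85.2-fold lower (50.8 to 156), and cluster 27 with 13 reads, 195-fold lower (114 to 366). The members with the highest log2 ratios rested on few reads: cluster 163 had 2 reads, 17.9-fold lower (4.96 to 148), cluster 154 had 1, 42.0-fold lower (7.54 to 1659), and clusters 57, 132 and 94 had 3, 3 and 2. Cluster 119 had 5 reads, 50.3-fold lower (21.5 to 155), against the low lysate value of this table. Cluster 178 had the lowest ratio among members above 0, with 2 reads against 12982, 649-fold lower (180 to 5360). At the other low ratios, clusters 139, 144, 111, 130 and 54, the ACR IP had 0 reads. Some of these intervals do not overlap, such as those of clusters 178 and 136, and no test between members was made.

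**Figure D4:**
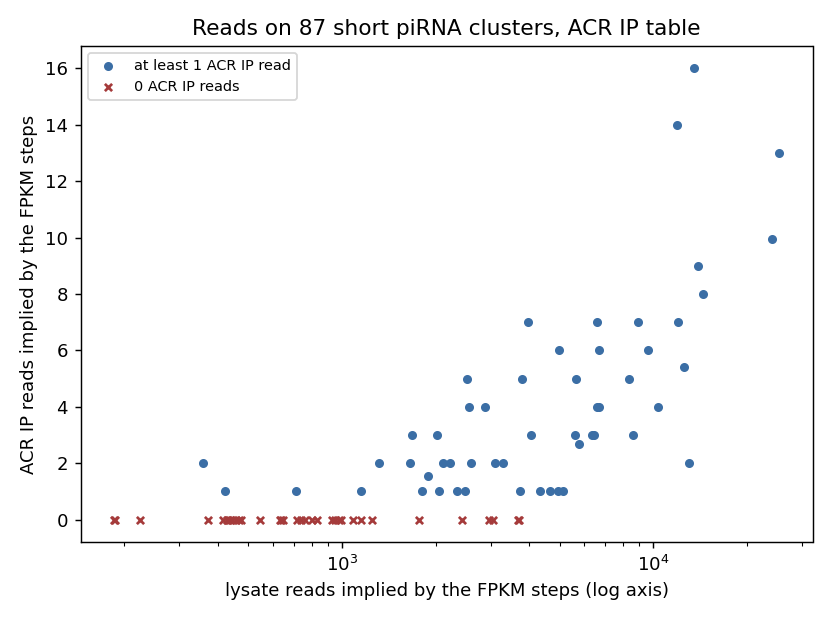
Reads of each short cluster in the ACR IP against its lysate reads in the same table (log axis), both derived from the steps of the authors' FPKM values, with members at 0 ACR IP reads as crosses. The 34 members at 0 have 185 to 3700 lysate reads, and the highest member, cluster 136, has 16 ACR IP reads.

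In the MVH IP all 87 short clusters were listed above 0, at 20.4 to 2285 FPKM with a median of 235; the long clusters had a median of 738. The ACR IP, in a separately normalised table, had 0 to 22.4 FPKM for the same members. The 6 highest members in the MVH IP were cluster 189 (2285 FPKM), cluster 27 (1815), cluster 11 (1566), cluster 6 (1474), cluster 178 (1331) and cluster 140 (1195), 5 of which were also among the 6 highest of the lysate. The order of members was close to that of the pellet (Spearman 0.99, Pearson 0.98) and of the lysate (0.98 and 0.98), as a description over 87 loci with the same lengths. The MVH IP value was 0.22 to 0.82 of the lysate value of the pellet table, with a median of 0.50, the same as for long clusters (0.50); both come from separately normalised tables, so only their order among members can be read. Cluster 29 had the highest of these quotients, 478 FPKM against 583, and cluster 163 the lowest, 24.8 against 111.

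Sorted round spermatids held all 87 members, at 18.5 to 3005 FPKM with a median of 231, and long clusters had a median of 1046. The 6 highest were cluster 189 (3005 FPKM), cluster 119 (2507), cluster 140 (2048), cluster 160 (2026), cluster 149 (2020) and cluster 12 (1984). Clusters 119, 160 and 149 had lysate values of 1994, 1112 and 1153 FPKM and so stood higher in round spermatids relative to other members. The quotient of round spermatid to lysate level had a median of 0.56, against 0.68 for long clusters, and ran from 0.23 (cluster 29) to 1.82 (cluster 160). Its values come from separately normalised tables, so 1 does not mark an equal level and only the order can be read. The quotient was above 1 in 5 members: clusters 160 (1.82), 149 (1.75), 119 (1.26), 136 (1.07) and 150 (1.03).

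Several of these members stood apart in another respect, which touches how far their lysate values can be read. The lysate column appears in the supernatant, pellet and ACR IP tables. For all 87 members the supernatant table gave 0.418 of the lysate value of the pellet table. The ACR IP table gave at most 0.871 of it, and 56 members lay between 0.85 and 0.88, but 18 members were under 0.8 and 8 under 0.7. The lowest were cluster 119 at 0.27 (539 against 1994 FPKM), cluster 111 at 0.30 (432 against 1421), cluster 120 at 0.36 (321 against 898), cluster 143 at 0.51, cluster 160 at 0.53 and cluster 149 at 0.65. The round spermatid quotient was above 1 in 4 of these 18 members and in 1 of the other 69, with medians of 0.78 and 0.52. Pellet ratios of the same sets had medians of -2.41 and -2.45. Of the 4, clusters 149, 150 and 160 lie on chromosome 14 and cluster 119 on chromosome 10. Among long clusters in the members' stretches, clusters 113 and 86 had 1.80 and 1.46 at a lysate quotient of 0.87. Long cluster 157 had 1.10 at 0.74. A link between these quotients was not tested. In derived reads, the lysate of the ACR IP table and of the pellet table had 14481 and 14484 for cluster 189. For cluster 119 they had 2514 and 8102, and for all members together 359365 and 395315. The low quotient of cluster 119 thus went with fewer reads, not with the step between tables alone. Why fewer reads were given was not tested, and the ACR IP ratios of the 18 members depend on which lysate value is used.

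The 18 members lie in 11 stretches on 9 chromosomes, and 10 of them lie in the 4 stretches that hold a member under 0.7. On chromosome 10 (86038120 to 86085490) clusters 119, 120, 110 and 111 had lysate quotients between tables of 0.27 to 0.67, and the long cluster 118 beside them had 0.49. On chromosome 14, clusters 159 and 160 (45395353 to 45398244) and clusters 149 and 150 (45557078 to 45561592) had 0.53 to 0.78, and clusters 143 and 144 on chromosome 13 (50608496 to 50611926) had 0.51 and 0.66. The other 8 were clusters 123 (0.73), 12 (0.73), 10 (0.76), 27 (0.77), 11 (0.78), 194 (0.79), 84 (0.79) and 184 (0.80). Cluster 160 had 1112 FPKM in the lysate and 213 in the pellet of the pellet table, 465 in the lysate and 383 in the supernatant of the supernatant table, and 584 in the lysate and 4.52 in the ACR IP of the ACR IP table, with 532 in the MVH IP and 2026 in round spermatids. Its pellet ratio, -2.38, was near the members' median and its supernatant ratio, -0.28, among the lowest.

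**Figure D5:**
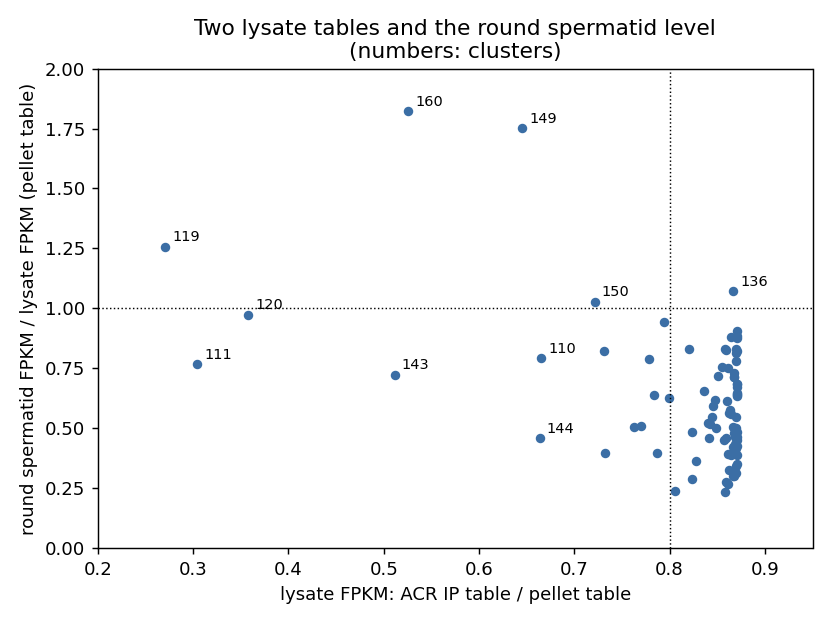
Round spermatid level over lysate level (vertical, FPKM ratio) against the ratio of the lysate values of the ACR IP and pellet tables (horizontal) for the 87 short clusters, with dotted lines at 1 and 0.8. Numbers mark the clusters under 0.7 on the horizontal axis or above 1 on the vertical axis. Most members lie at 0.85 to 0.88 on the horizontal axis, and 4 of the 5 members above 1 lie left of 0.8.

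The machinery of the pathway gave little small RNA of its own. Of 25 genes of the piRNA pathway, 9 were listed in the pellet comparison. All 9 were at least 2-fold lower, as were 86.5% of all features, with a median of -1.95 against -2.20 for all features. In the supernatant 15 were listed with a median of -0.02 and none past 2-fold, where 5.42% of all features were lower and 7.16% higher. In the ACR IP 5 of 6 were at least 2-fold lower, as were 59% of all features. The highest were Ddx25, which encodes an RNA helicase of spermatids, at 31.9 FPKM in the lysate of the pellet table, Piwil1 (MIWI) at 14.0, Piwil2 (MILI) at 12.2 and Pld6, the nuclease that forms piRNA ends, at 9.67, all under the lowest member. All 3 germ cell microRNAs and all 5 haploid spermatid genes looked for were listed in the lysate, with Mir34c highest. Markers of other cells were listed there too, so this listing does not check the labels. In the pellet comparison 2 of 4 red cell, 2 of 2 smooth muscle, 2 of 3 Sertoli cell, 2 of 3 Leydig cell and 1 of 1 endothelial markers were listed. All of them were at least 2-fold lower, as were 86.5% of all features. Among these, Mir451 of red cells, Mir143 and Mir145 of smooth muscle, Mir202 of Sertoli cells, Mir126 of endothelium and Insl3 of Leydig cells had pellet ratios of -6.79 to -3.71. Mir144 of red cells was lower still at -7.04, while Cyp17a1 of Leydig cells had -2.48 and Clu of Sertoli cells -1.57. Germ cell markers fell as well: the 3 microRNAs had pellet ratios of -3.94 to -3.71. The 5 haploid spermatid genes ran from -3.85 (Prm1) to -2.72 (Odf1). The ranges of germ cell and other markers thus overlapped. In round spermatids Mir143 stood at 40906 FPKM, Mir145 at 17039, Mir202 at 8128, Mir126 at 1621 and Mir451 at 1016, and Mir144 was listed at 0. The germ cell microRNAs stood there at 175682 FPKM for Mir34c, 74923 for Mir34b and 7516 for Mir449a, so that Mir449a lay below Mir143, Mir145 and Mir202. Of the 5 haploid spermatid genes only Prm1 was listed in round spermatids, at 26.8 FPKM. In the MVH IP Prm1 had 28.3 FPKM and Prm2 27.0, while Tnp1, Tnp2 and Odf1 were listed at 0. Kit was the 1 of 2 spermatogonial markers listed in the pellet comparison. It was higher than the lysate, with 18.2 against 5.27 FPKM in the pellet and 54.6 against 1.65 in the ACR IP. The part of these cells in the members' values was not tested.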

How the data were processed

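The 8 samples of 7 groups were profiled for RNA of 19 to 33 nt. TopHat, Cuffdiff and mm9 are named in the submitters' processing notes. Their versions, the annotation and the handling of multiply matching reads are not given in the sources used here. As FPKM, the authors deposited expression levels in 5 tables, and, in the supernatant and pellet tables, p-values, q-values, calls and a test statistic, which is a score. Per the labels, 1 library stands behind each group other than the MVH IP. A further column of long RNA values (1 column) belongs to no sample and was not used.

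Ratios were log2((fraction + 1)/(lysate + 1)) within a table, taken where either column reached 1 FPKM. The counting SE is the log2 ratio without pseudocount divided by the authors' deposited test statistic. Simulated data for this step used counts with a statistic built by the same formula. They check the arithmetic, and cannot show that the authors' statistic holds counting error only. For cluster 142 the SE implied 272 pellet reads at 114 FPKM, against 1242 for cluster 75 at 119 FPKM. Clusters 6 and 29 also had fewer implied reads than their FPKM and length would give at the steps of other members. The ACR IP counts of clusters 6, 108, 142 and 29 were 9.95, 5.42, 2.69 and 1.54, not whole numbers. Reads were derived from FPKM times (length - 200.75), which falls for most members on steps of 2485 in the ACR IP and 248 in its lysate. In the pellet table the lysate step was 285. Lysate reads per member were 185 to 28706 (median 3078), and the SEs imply 23 to 4555 pellet reads (median 435) and 258 to 40141 supernatant reads (median 3927). Intervals and floors of 3 reads cover counting error only. Signal shares are FPKM times locus length. Of the 88 long clusters, 21 share a locus with another listed feature.

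The members, the lists and the MYB motif were chosen with earlier results of these data known. Named members are the 6 highest and 6 lowest ratios of each comparison, the 6 highest levels or shares of each column given in the text, 3 members on each side of the length limit, the 3 shortest, those sharing a gene's locus, those called in a direction in which the authors' deposited table called 5 or fewer, and 4 pathway genes. Neighbours of these, members named for the lysate quotient, clusters 136 and 110 for their ACR IP reads, clusters 63 and 193 and the markers were named after their values were seen. Alternatives were other pseudocounts and filters, the lower quartile of length, members without genes, and centring. Software was matplotlib 3.10.9, scipy 1.17.1, pandas 2.3.3, numpy 2.4.6 and Python 3.11.15. Other sequence of the members, in mm9, is not analysed here.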

Additional observations from a re-analysis of the deposited data

How the results depend on the processing

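No paired analysis was possible because each group has 1 column of values, and for the same reason there was no replicate to leave out. Of 99 alternatives over 17 results, 57 gave the same value after rounding (a count within 1.5 times) and 42 moved. No ratio median changed sign, and a reversal was scored for ratio medians only. Some alternatives could not move a result. The lowest lysate value of a member was 26.8 FPKM, so the filters on low values removed none. Keeping members above 0 removed members only in the ACR IP.

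The supernatant median moved from -0.034 to -0.038 without members that share a gene's locus and to -0.056 centred on all features. The pellet median was -2.45 with a pseudocount of 0.1, -2.27 with 10, -2.41 below the lower quartile of length (43 members) and -0.24 centred on all features. The ACR IP median was -7.90 and -4.95 with those pseudocounts, -6.85 below the lower quartile, -6.97 without members that share a gene's locus, -6.91 over the 53 members above 0 and -4.38 centred. Chosen after seeing the data, it was -6.12 with members at 0 set at 3 reads and -7.12 without the 18 members whose lysate differs between tables. Fewer members gave fewer 2-fold lower: 43 in the pellet and 43 in the ACR IP below the lower quartile, and 53 in the ACR IP above 0.

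The shares in lysate, supernatant, pellet, ACR IP, MVH IP and round spermatids, in that order, were 28.5%, 28.5%, 22.8%, 5.47%, 24.0% and 28.1% on FPKM without length, 0.999%, 1.01%, 0.990%, 0.741%, 0.994% and 0.947% below the lower quartile, and, chosen after seeing the data, 4.67%, 4.69%, 4.53%, 3.07%, 4.44% and 4.28% over the 154 clusters with a locus of their own. Without the 5 left-out clusters in the total, the share was 3.64% in the pellet, 3.46% in the ACR IP, 3.66% in the MVH IP and 3.28% in round spermatids. The median level was 222 FPKM in the MVH IP and also in round spermatids without members that share a gene's locus, and 172 FPKM in round spermatids without the 18 members. The shallow ACR IP, with 1 read at the median member, sets the limit on every ratio to it.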

Other observations

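The quotient of MVH IP to round spermatid level, across tables that were normalised separately, had a median of 0.87 over the 87 short clusters and ran from 0.26 to 3.52. Cluster 29 was at the top, with 478 FPKM in the MVH IP and 136 in round spermatids, and it also had the lowest supernatant ratio. Cluster 193 on chromosome 18 followed at 2.86, with 472 and 165 FPKM, and had a supernatant ratio of -0.25 (counting SE 0.03). At the bottom were cluster 160, with 532 and 2026 FPKM, and cluster 149, with 600 and 2020 FPKM. The pellet ratios of these 4 members, -2.32, -2.46, -2.38 and -2.19, lay within the range of the others. The differences were not tested, since each column stands alone.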
